A study of Mus musculus with 2 samples.

Results

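The clade B serpins are mostly intracellular proteins, and many of them inhibit proteases. The 10 described here, grouped under stratified epithelium, are Serpinb1a, Serpinb2, Serpinb3a, Serpinb5, Serpinb6a, Serpinb7, Serpinb8, Serpinb9, Serpinb11 and Serpinb12. Every probe set that the array annotation gives to exactly 1 of these genes was taken, which gave 17 of the 45101 probe sets on the array. Each of the 10 genes was measured, among 11934 genes in all, where a gene is measured if a probe set reads at least 100 on at least 1 array. RNA came from the vagina of Fbln5-/- females, which lack the elastic fibre protein fibulin-5, and of wild type (WT) females of the same C57/Bl6 background. Both genotypes were 6 months old, had been ovariectomized and had received estradiol at 50 µg/kg/d for 3 d, so neither array shows the tissue without estrogen. The labels place ovariectomy at 11 d, the series description at 2 weeks, and the methods start estradiol 2 weeks after ovariectomy. The methods name 2 animals in each group, the data hold 1 array per genotype, and whether RNA was pooled is not given in the sources used here.

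A serpin presents an exposed loop as bait, and a protease that cuts the loop is trapped in a covalent complex with it. Members of clade B lack a classical secretion signal and act mostly inside the cell, where they are known to hold in check proteases of granules and lysosomes. Keratinocytes of stratified epithelium, the tissue that lines the vagina, make many of them, and loss of single members in humans causes peeling or thickened skin. Some members, such as maspin, do not inhibit proteases.

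On the Fbln5-/- array Serpinb12 read 3.07-fold and Serpinb3a 2.19-fold higher than on the WT array, and Serpinb7 read 3.24-fold lower. The other 7 members lay within 2-fold, between a log2 ratio of −0.19 and 0.75. Signals are MAS5 intensities scaled to a common median, and log2 ratios are Fbln5-/- over WT. Thus 2 of 10 members were higher by at least 2-fold, where 7.21% of all genes measured were, and 1 of 10 was at least 2-fold lower, where 4.77% of all genes were. The median log2 ratio was 0.34 over the members and 0.16 over all genes, whose quartiles were −0.17 and 0.50. Of the members, 6 lay above the median of all genes and 4 below it. With 1 array per genotype there is no replicate, so no difference below has a test, a p-value or an error between animals. In whole tissue, fewer cells of a type and less RNA per cell cannot be told apart.

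**Figure D1:**
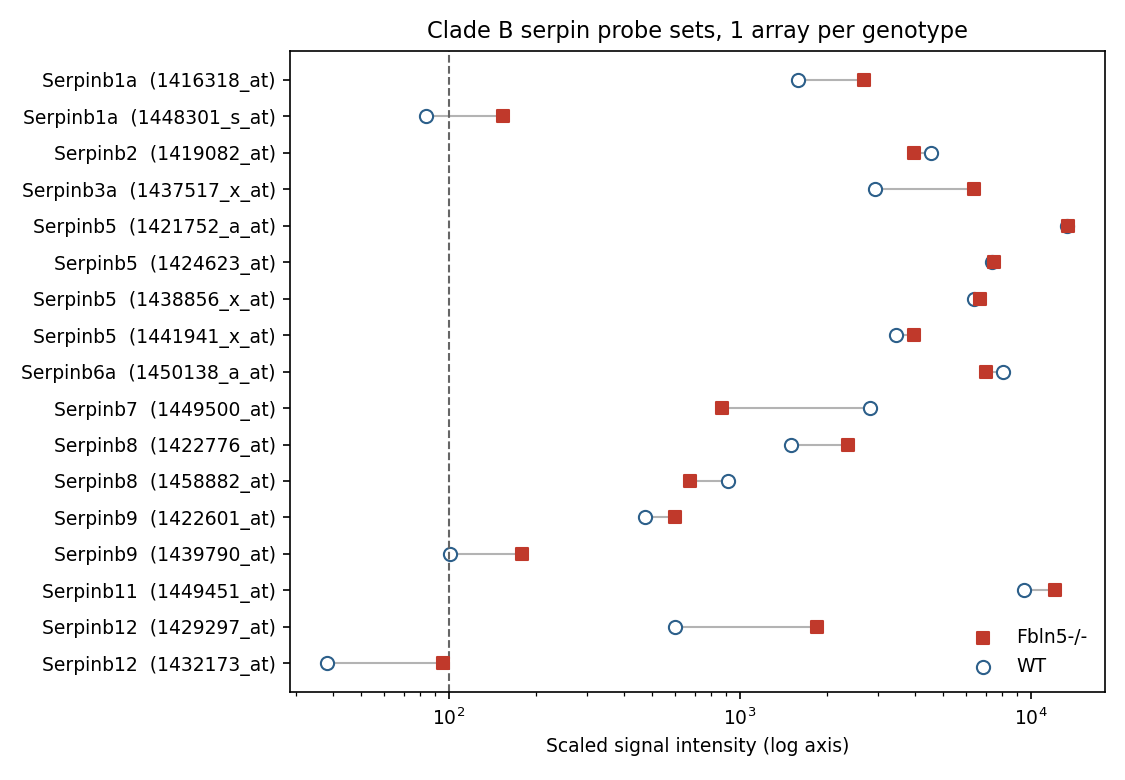
Scaled signal intensity (log axis) of each of the 17 probe sets of the 10 clade B serpins on the Fbln5-/- array (squares) and the WT array (circles), 1 array each, with a dashed line at 100. The arrays lie apart at Serpinb7 (867.8 in Fbln5-/- and 2814 in WT), Serpinb12 (1842 in Fbln5-/- and 600.0 in WT) and Serpinb3a (6374 in Fbln5-/- and 2917 in WT), and meet at the probe sets of Serpinb5.

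Fbln5 itself read 30.4 on the Fbln5-/- array and 410.4 on the WT array, at least 4.10-fold lower. Another probe set of the gene stayed below 100 in either genotype. The labelled tissue was checked on the keratins of stratified epithelium. Basal Krt5 read 16059 on the Fbln5-/- array and 16102 on the WT array, and suprabasal Krt13 read 21197 on the Fbln5-/- array and 19999 on the WT array. The control probe sets along housekeeping transcripts differed between the arrays toward the 5′ end. For Gapdh the log2 ratios were 0.05 at the 3′ end, −1.16 in the middle and −4.44 at the 5′ end, and for Actb it was −0.18, −1.22 and −1.87. The 5′ probe sets thus read lower on the Fbln5-/- array, and where each serpin probe set lies along its transcript is not known here.

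Serpinb7, or megsin, is an inhibitor of the upper epidermis whose loss in humans causes Nagashima-type palmoplantar keratosis. Its single probe set, 1449500_at, read 867.8 on the Fbln5-/- array and 2814 on the WT array, a log2 ratio of −1.70. As deposited, before the common median was set, the intensities were 843.9 in Fbln5-/- and 2893.7 in WT. It was the 190th lowest ratio of the 11934 genes, with 1.58% of genes below it. No other probe set was named for Serpinb7 alone. Of the 569 genes counted as 2-fold lower, 431 had 1 probe set past the limit of 100. The same share over all genes measured is not given here, so the 2 cannot be compared. The part that the loss of 5′ signal has in it was not tested.

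Serpinb12 inhibits trypsin-like proteases and is made in epithelia. Its probe set 1429297_at read 1842 on the Fbln5-/- array and 600.0 on the WT array, a log2 ratio of 1.62, and the deposited intensities were 1791.4 in Fbln5-/- and 617 in WT. It held the 306th highest ratio of all genes measured. The other probe set, 1432173_at, read 95.9 in Fbln5-/- and 38.3 in WT. Both readings are under 100, so no fold is given, and the increase rests on 1 probe set.

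The 250 bases before the annotated starts of both genes are shown because they lie in 1 cluster and carry the lowest and the highest ratio among the members. They come from RefSeq on GRCm38.p6, 5′ to 3′ on the coding strand, and capitals mark TATAAA read on either strand (as TTTATA on the other) and, in Serpinb7, TGAGTCA, the letters bound by AP-1. Serpinb7 lies at chr1:107422439-107422688 (+) and the first of the annotated Serpinb12 starts at chr1:106934199-106934448 (+).
Serpinb7: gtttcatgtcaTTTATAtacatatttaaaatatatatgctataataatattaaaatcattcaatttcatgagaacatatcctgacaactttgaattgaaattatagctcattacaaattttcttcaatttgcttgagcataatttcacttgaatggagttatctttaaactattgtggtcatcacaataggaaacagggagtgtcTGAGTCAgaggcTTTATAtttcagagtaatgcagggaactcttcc
Serpinb12: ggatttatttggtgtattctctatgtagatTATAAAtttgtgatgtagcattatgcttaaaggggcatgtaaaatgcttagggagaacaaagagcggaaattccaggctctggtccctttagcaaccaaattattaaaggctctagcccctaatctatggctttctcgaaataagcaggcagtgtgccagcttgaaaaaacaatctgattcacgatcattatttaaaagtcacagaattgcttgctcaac
In Serpinb7 the TGAGTCA begins 45 bases before the start and a TTTATA 33 bases before it. In Serpinb12 the TATAAA begins 220 bases before the start.

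Motifs were looked for on both strands in the 250 bases before 32851 annotated starts, of which 12 belong to 9 of the members. Serpinb1a is not in the table. TATAAA was in 6 of the 12, covering Serpinb12, Serpinb2, Serpinb3a and Serpinb7, and in 12.4% of all. The 6 are not independent, because the 2 stretches of Serpinb2 overlap. They share 1 TATAAA, 29 bases before one start and 116 before the other. By gene, 4 of 7 members on chromosome 1 and 0 of 2 on chromosome 13 had a match. TGAGTCA was in 2 of the 12, those of Serpinb7 and Serpinb8, and in 4.46% of all. TTCNNNGAA, the STAT letters, was in 2 of the 12, at Serpinb2 and Serpinb6a, and in 7.02% of all. The full palindromic estrogen response element was in none of the 12 and in 0.0639% of all. A match describes letters only.

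Serpinb3a is a mouse relative of the squamous cell carcinoma antigens, which inhibit lysosomal cathepsins in humans. Its only probe set, 1437517_x_at, read 6374 on the Fbln5-/- array and 2917 on the WT array, a log2 ratio of 1.13 and the 653rd highest of all genes. The suffix x marks a probe set in which some probes resemble other sequences. Serpinb3b, Serpinb3c and Serpinb3d lie beside Serpinb3a, and no probe set was named for any of them alone. Signal from these copies cannot be told apart from that of Serpinb3a here. How close the copies are is shown by the bases before their starts, from RefSeq on GRCm38.p6, 5′ to 3′, for Serpinb3a at chr1:107052332-107052553 (−) and Serpinb3b at chr1:107161119-107161340 (−), with capitals marking the bases of Serpinb3b that differ.
Serpinb3a: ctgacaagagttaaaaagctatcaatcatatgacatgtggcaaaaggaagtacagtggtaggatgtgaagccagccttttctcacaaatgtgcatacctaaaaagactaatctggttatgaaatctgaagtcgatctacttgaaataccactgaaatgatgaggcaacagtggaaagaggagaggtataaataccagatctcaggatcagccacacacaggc
Serpinb3b: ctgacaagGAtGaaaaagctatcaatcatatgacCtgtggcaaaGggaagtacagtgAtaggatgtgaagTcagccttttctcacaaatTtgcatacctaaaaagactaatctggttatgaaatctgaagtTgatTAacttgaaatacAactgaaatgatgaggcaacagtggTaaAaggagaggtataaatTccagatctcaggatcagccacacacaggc
Of 222 aligned positions 207 were identical, or 93.2%. Against Serpinb3c, 203 of 216 were identical, or 94.0%, while only 21 positions aligned with Serpinb3d. These are flanking bases, not the probes, and the transcripts were not compared.

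Serpinb1a and Serpinb8 were higher on the Fbln5-/- array by less than 2-fold. Serpinb1a inhibits the neutrophil proteases elastase, proteinase 3 and cathepsin G. Its probe set 1416318_at read 2679 in Fbln5-/- and 1589 in WT, which is 1.69-fold, and 1448301_s_at read 153.9 in Fbln5-/- and 83.8 in WT, at least 1.54-fold. Both probe sets of Serpinb1a were thus higher in Fbln5-/-. Serpinb8 is an inhibitor of furin, and its loss in humans causes peeling skin. Its probe set 1422776_at read 2362 in Fbln5-/- and 1504 in WT, 1.57-fold higher, whereas 1458882_at read 675.0 in Fbln5-/- and 908.5 in WT, 1.35-fold lower. The probe sets of Serpinb8 therefore gave opposite directions, 1.08 apart on the log2 scale. Of the 2699 genes with exactly 2 probe sets that reached 100 in both genotypes, 36.0% had opposite signs and 11.8% had a gap at least as wide. Over 4114 genes with several such probe sets, the pooled SD between probe sets of 1 gene was 0.52 on the log2 scale, which measures probe sets and not animals.

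Serpinb9 and Serpinb11 were slightly higher. Serpinb9 is the granzyme B inhibitor that protects cells from cytotoxic granules. Its probe set 1422601_at read 597.2 in Fbln5-/- and 473.2 in WT, and 1439790_at read 178.5 in Fbln5-/- and 100.7 in WT. Both were higher in Fbln5-/-, at log2 ratios of 0.34 and 0.83. Serpinb11, which inhibits trypsin-like proteases in the mouse and has lost that function in humans, read 12080 in Fbln5-/- and 9484 in WT, 1.27-fold higher. Measured from the median of all genes, the log2 ratios of these genes were 0.18 for Serpinb9 and 0.19 for Serpinb11.

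Serpinb5, Serpinb2 and Serpinb6a were close between the arrays. Serpinb5, or maspin, is a serpin of basal and suprabasal keratinocytes that does not inhibit proteases. Its 1421752_a_at read 13412 in Fbln5-/- and 13370 in WT, and 1424623_at read 7493 in Fbln5-/- and 7378 in WT. The other Serpinb5 probe sets read 6684 in Fbln5-/- and 6371 in WT (1438856_x_at), and 3970 in Fbln5-/- and 3450 in WT (1441941_x_at). The log2 ratios of all 4 lay between 0.00 and 0.20. Serpinb5 moved to between −0.12 and 0.07 with other processing and has no settled sign. Serpinb2, or plasminogen activator inhibitor 2, read 3965 in Fbln5-/- and 4530 in WT. Serpinb6a, an inhibitor of cathepsin G and trypsin-like proteases, read 7052 in Fbln5-/- and 8029 in WT. Both ratios were −0.19, or −0.35 from the median of all genes.

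Over probe sets in place of genes, 16 of the 17 passed the limit of 100 on at least 1 array, and 12 of the 16 had a ratio above 0. At least 2-fold higher were 2 of 16, where 6.49% of all probe sets past the limit were, and at least 2-fold lower was 1 of 16, where 8.52% were. The summed signal of the representative probe sets of the members was 51231 in Fbln5-/- and 45311 in WT, a log2 ratio of 0.18.

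**Figure D2:**
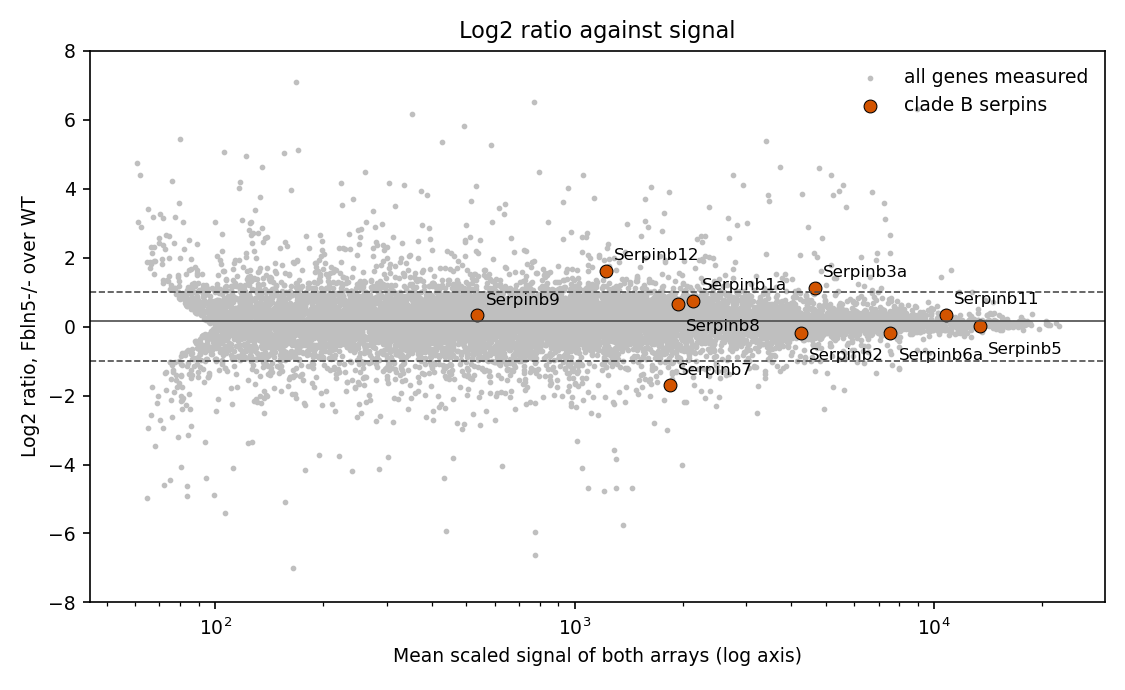
Log2 ratio of Fbln5-/- over WT against the mean scaled signal of both arrays (log axis) for 11934 genes (grey) and the 10 clade B serpins (orange), with dashed lines at 2-fold and a solid line at the median of all genes, 0.16. Serpinb12 (1.62) and Serpinb3a (1.13) lie above the upper dashed line and Serpinb7 (−1.70) below the lower one.

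Of the members, 7 lie in a run of 12 protein-coding genes on chromosome 1 and 3 in a run of 16 on chromosome 13, with no gene of another family within either run. Along chromosome 1 the log2 ratios were 0.00 for Serpinb5, 1.62 for Serpinb12, 1.13 for Serpinb3a, 0.35 for Serpinb11, −1.70 for Serpinb7, −0.19 for Serpinb2 and 0.65 for Serpinb8. Serpinb7 thus lies directly between Serpinb11 and Serpinb2, both within 2-fold. On chromosome 13 the ratios were 0.75 for Serpinb1a, 0.34 for Serpinb9 and −0.19 for Serpinb6a. All members of at least 2-fold difference were on chromosome 1. Of the other clade B genes, 17 were listed, 8 had a probe set of their own in the annotation used here and 2 were measured. Serpinb6e read 316.1 in Fbln5-/- and 309.8 in WT, and Serpinb6b read 138.6 in Fbln5-/- and 94.3 in WT, so neither passed 2-fold.

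**Figure D3:**
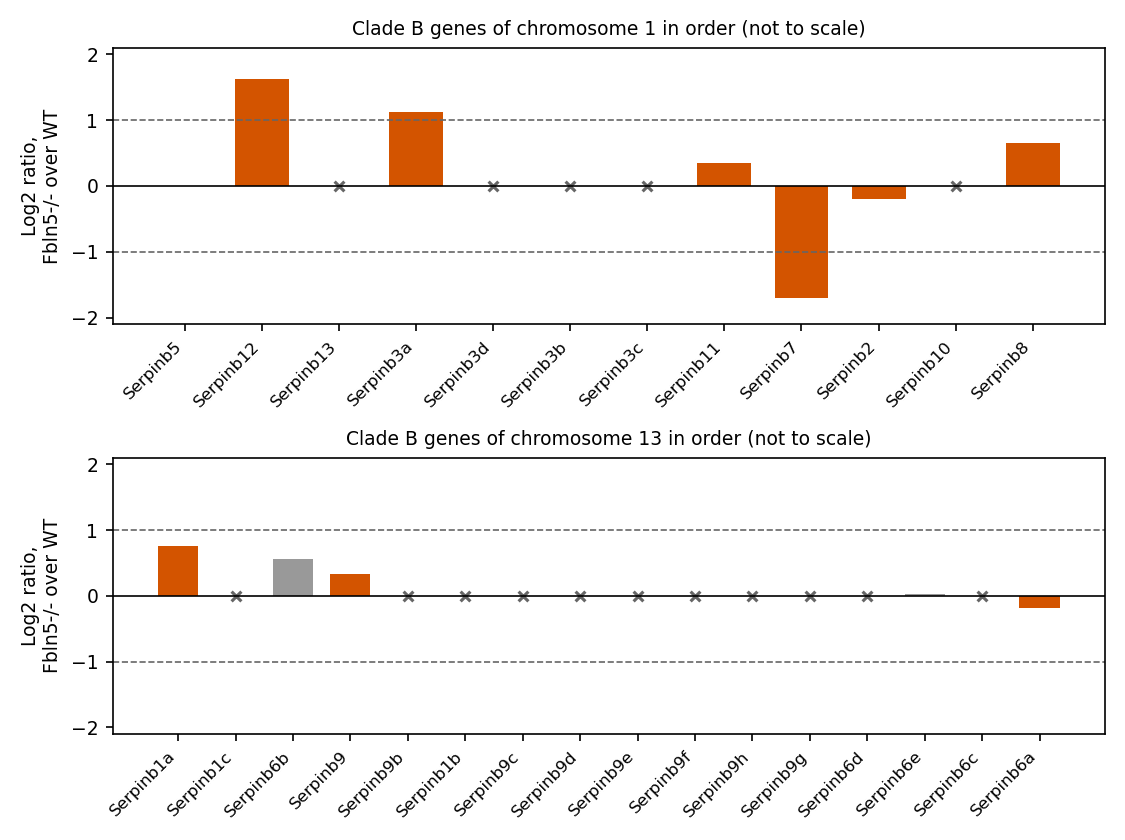
Log2 ratio of Fbln5-/- over WT for the clade B genes in their order along chromosomes 1 and 13 (not to scale), members in orange and other measured genes in grey, with crosses where no signal of at least 100 was measured or no probe set was named and dashed lines at 2-fold. Serpinb7 (−1.70) stands between Serpinb11 (0.35) and Serpinb2 (−0.19).

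The proteases that these serpins are known to inhibit, or that work in the same epithelium, were set beside them. Of 15 listed, 10 were measured, of which 3 passed 2-fold upward in Fbln5-/- and 1 downward. Over all genes measured, 7.21% passed it upward and 4.77% downward. The median log2 ratio of the list was 0.64, against 0.16 over all genes. The kallikreins that shed the cornified layer carried the widest difference. Klk7 read 1500 in Fbln5-/- and 184.7 in WT, 8.12-fold higher, and Klk8 read 7992 in Fbln5-/- and 2304 in WT, 3.47-fold higher. Tissue-type plasminogen activator, Plat, a target of Serpinb2, read 717.7 in Fbln5-/- and 222.6 in WT. Urokinase, Plau, the other target of Serpinb2, read 86.8 in Fbln5-/- and 189.4 in WT, at least 1.89-fold lower, so it is not counted once signals under 100 are set to 100. Serpinb2 itself differed by 1.14-fold.

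Among the lysosomal cathepsins, Ctsl read 9138 in Fbln5-/- and 5163 in WT. By its brightest probe set, Ctsb read 10859 in Fbln5-/- and 9665 in WT, a log2 ratio of 0.17. The 4 Ctsb probe sets past the limit of 100 gave opposite directions. The next brightest read 6621 in Fbln5-/- and 8871 in WT, a log2 ratio of −0.42. The others were higher in Fbln5-/-, at log2 ratios of 0.62 and 0.87. Ctss read 3080 in Fbln5-/- and 3997 in WT, and Ctsk read 1555 in Fbln5-/- and 1317 in WT. None of the cathepsins reached 2-fold. Furin, the target of Serpinb8, read 2248 in Fbln5-/- and 1445 in WT, a log2 ratio of 0.64. Casp1, a protease of inflammation, read 1452 in Fbln5-/- and 934.8 in WT. The granule proteases Elane, Prtn3, Ctsg and Gzmb, targets of Serpinb1a, Serpinb6a and Serpinb9, were under 100 on both arrays, between 12.7 and 35.5. Klk5 was also under it, at 92.4 in Fbln5-/- and 22.6 in WT.

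**Figure D4:**
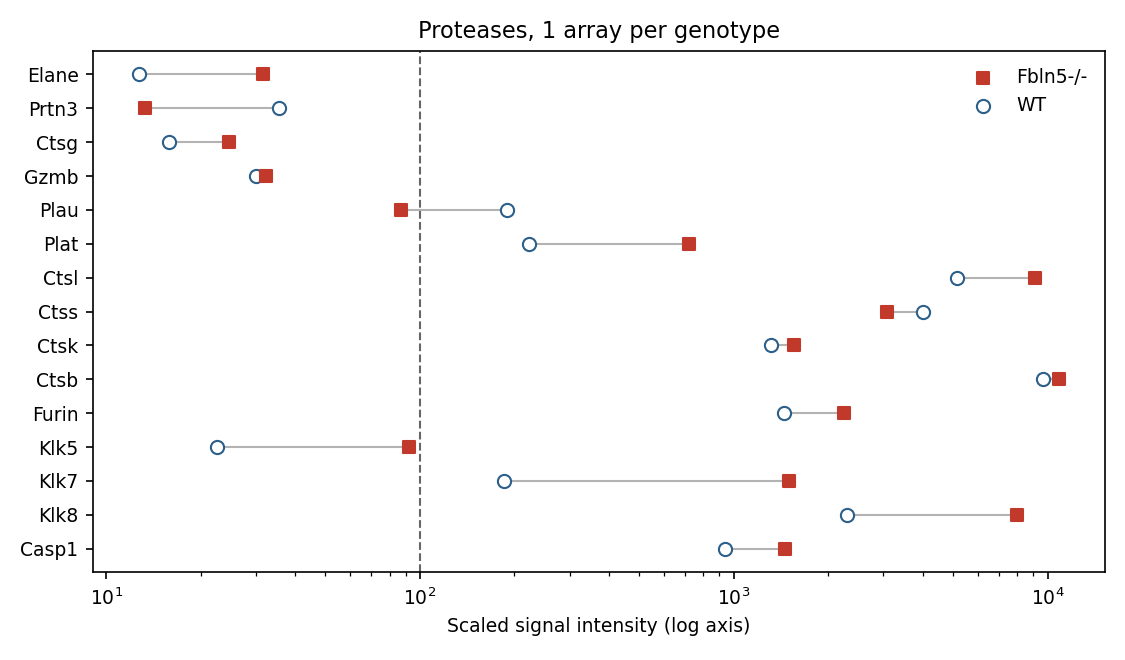
Scaled signal intensity (log axis) of 15 proteases on the Fbln5-/- array (squares) and the WT array (circles), 1 array each, with a dashed line at 100. Klk7 (1500 in Fbln5-/- and 184.7 in WT), Klk8 (7992 in Fbln5-/- and 2304 in WT) and Plat (717.7 in Fbln5-/- and 222.6 in WT) lie higher in Fbln5-/-, while Elane, Prtn3, Ctsg, Gzmb and Klk5 stay left of the line on both arrays.

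The make-up of the tissue was read from marker lists, whose counts and sums are over the measured genes, each by its brightest probe set. For comparison with each list, 7.21% of all genes measured were at least 2-fold higher and 4.77% at least 2-fold lower. Basal epithelium had 8 of 8 genes measured and none past 2-fold, with a summed signal of 72813 in Fbln5-/- and 65389 in WT (Krt5, and Krt14 at 15581 in Fbln5-/- and 10892 in WT). Suprabasal and cornified epithelium had 21 of 22 measured, 3 higher and 0 lower, and summed to 286671 in Fbln5-/- and 240749 in WT, led by Krt13 and by Krt10 at 18123 in Fbln5-/- and 17574 in WT. The 3 were Ivl, Tgm3 and Crct1, which build or crosslink the cornified envelope, at log2 ratios of 1.36, 1.63 and 1.65. By their brightest probe sets, only Tgm1 and Cnfn of the measured genes of this list read lower in Fbln5-/-, and the others read higher. Tgm1 read 4159 in Fbln5-/- and 7120 in WT, and Cnfn read 16943 in Fbln5-/- and 18252 in WT. The median log2 ratio of the list was 0.20, against 0.16 over all genes. The part of these genes in the serpin values was not tested.

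Markers of blood cells bear on Serpinb1a and Serpinb9, which leukocytes also make. Of 10 neutrophil genes 6 were measured, 2 higher and 2 lower (0 lower with signals under 100 set to 100), and the list summed to 21038 in Fbln5-/- and 16459 in WT. Ltf, which glandular epithelium shares, read 15164 in Fbln5-/- and 14452 in WT, and S100a8, which keratinocytes also make, read 4372 in Fbln5-/- and 1198 in WT. The other higher gene, S100a9, read 1231 in Fbln5-/- and 422.5 in WT. The lower genes were Ngp, at 47.5 in Fbln5-/- and 124.7 in WT, and Camp, at 27.4 in Fbln5-/- and 111.2 in WT. Csf3r, a receptor that neutrophils carry, read 196.1 in Fbln5-/- and 150.4 in WT. The T and NK cell list had 3 of 9 genes measured and 0 past 2-fold, summing to 400.8 in Fbln5-/- and 397.2 in WT (Cd8a 188.3 in Fbln5-/- and 135.5 in WT, Cd3g 136.5 in Fbln5-/- and 142.9 in WT). Of 8 macrophage genes, all measured, 2 were higher and 1 lower, with sums of 14474 in Fbln5-/- and 13198 in WT (Lyz2 3894 in Fbln5-/- and 4455 in WT, Csf1r 3771 in Fbln5-/- and 2552 in WT). The higher were Cd14 and Mrc1, at log2 ratios of 1.19 and 1.42. The lower was C1qa, at 184.3 in Fbln5-/- and 1847 in WT, while C1qb read 2065 in Fbln5-/- and 1875 in WT. The part of these blood cell markers in the values of Serpinb1a and Serpinb9 was not tested.

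Other tissues differed most in fat. The adipocyte list had 4 of 8 genes measured, all 4 at least 2-fold higher, where 7.21% of all genes measured were. It summed to 7694 in Fbln5-/- and 2295 in WT (Fabp4 5703 in Fbln5-/- and 1980 in WT, Adipoq 1131 in Fbln5-/- and 104.1 in WT). Of the 4, Retn passed the limit of 100 on the Fbln5-/- array only, at 449.1 there and 34.8 in WT. Skeletal muscle had 7 of 8 measured and 2 higher, with sums of 8144 in Fbln5-/- and 5529 in WT (Acta1 3257 in Fbln5-/- and 2553 in WT, Myh1 1923 in Fbln5-/- and 570.2 in WT). Smooth muscle had 7 of 7 measured and 0 past 2-fold, with sums of 42744 in Fbln5-/- and 43590 in WT, led by Acta2 and Tagln. Fibroblast genes had 8 of 8 measured and 1 lower, with sums of 77820 in Fbln5-/- and 66865 in WT, led by Col1a2 and Col3a1. Simple and glandular epithelium had 9 of 9 measured, 1 higher (0 with signals under 100 set to 100) and 1 lower, with sums of 43442 in Fbln5-/- and 40907 in WT, led by Ltf and Krt7. Endothelium had 6 of 6 measured and 0 past 2-fold, with sums of 2913 in Fbln5-/- and 2519 in WT, led by Vwf and Cdh5. None of the marker genes had a signal of 0.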

How the data were processed

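RNA from the vagina of 1 Fbln5-/- and 1 WT sample was hybridised to Affymetrix mouse expression arrays. The authors deposited signal intensities on a linear scale, made with MAS5 per the submitters' processing notes (version and genome build not given in the sources used here). The intensities were scaled here to a common median (factors 1.03 for Fbln5-/- and 0.972 for WT), as the methods normalise to the 50th percentile. Deposited medians were 67.9 in Fbln5-/- and 71.8 in WT. The only signal of 0, in WT, became 0.1. Probe sets that reached 100 in either genotype were kept (21508, without 64 control probe sets), whereas 55.9% of Fbln5-/- and 54.8% of WT signals were under 100. The present and marginal calls of the methods were not used. Of the probe sets, 34958 had 1 gene symbol, 932 several and 9211 none, and 34754 of the first matched the GRCm38.p6 gene table, which gave names and gene order only. A gene is represented by its brightest probe set. A fold is a bound against 100 where 1 array is under 100.

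The members and lists were chosen with earlier results of these data known. Named genes were every member, every measured paralog and target protease at 2-fold or more, the 2 brightest of each list, Fbln5, and the Gapdh and Actb controls. The other proteases and Ivl, Tgm1, Tgm3, Cnfn, Crct1, Trp63 and Retn were named after their values were seen. So were Csf3r, S100a9, Ngp, Camp, C1qa, C1qb, Cd14 and Mrc1. Promoter sequences are from RefSeq, and copies were aligned with Biopython 1.88. Protein sequences were not used here. The number of arrays limits the precision. Steps were tested on simulated data. Alternatives in scaling, filter, floor, an added signal of 32, probe set choice and threshold were tried. Python 3.11.15, numpy 2.4.6, pandas 2.3.3 and matplotlib 3.10.9 were used.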

Additional observations from a re-analysis of the deposited data

How the results depend on the processing

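Of the members, 2 were at least 2-fold higher in Fbln5-/-. This count was 4 at a 1.5-fold threshold, which added Serpinb1a and Serpinb8. Serpinb8 entered by its brightest probe set, while its other probe set was lower in Fbln5-/-. The count was 1 at a 3-fold threshold. It was also 1 without the probe sets whose suffix marks shared or alternative sequence, where Serpinb3a and Serpinb6a have no probe set left. The count of members 2-fold lower was 1 under every alternative. The median over members ran from 0.23 to 0.34. Over the alternatives, the log2 ratio ran from −1.81 to −1.66 for Serpinb7, from 1.51 to 1.62 for Serpinb12 and from 1.02 to 1.13 for Serpinb3a. That of Serpinb8 was 0.11 as the mean over its probe sets, and that of Serpinb5 ran from −0.12 to 0.07 and had no settled sign. With the median ratio set to 1, the median of all genes was 0.05, against 0.16 as reported, and 676 genes were higher and 706 lower in place of 861 and 569, so 48.9% in place of 60.2% of the genes past 2-fold were higher. The mean over probe sets gave 779 and 835, no filter 2048 and 1535, 1.5-fold 2392 and 1238, and 3-fold 316 and 211. No paired analysis was possible because each genotype has 1 array. Where both arrays are under 100, no fold is given.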

Other observations

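The probe sets of the remaining clade B genes were under 100 on both arrays. Serpinb1b read 54.5 in Fbln5-/- and 40.5 in WT, Serpinb6c 56.9 in Fbln5-/- and 39.5 in WT, and Serpinb9b 95.1 in Fbln5-/- and 94.0 in WT. Serpinb9c, Serpinb9d and Serpinb9g read between 0.68 and 14.7. A probe set named for Serpinb9e, Serpinb9f, Serpinb9g and Serpinb9h together read 15.2 in Fbln5-/- and 25.4 in WT. Serpinb1c, Serpinb3b, Serpinb3c, Serpinb3d, Serpinb6d, Serpinb10 and Serpinb13 had no probe set named for them in the annotation used here and were not analysed.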
